A study of Mus musculus with 2 samples.

Results

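The 10 genes described here encode the 5 subunits of the transcription factor NF-kB (Nfkb1, Nfkb2, Rel, Rela and Relb) and 5 proteins that hold NF-kB signalling in check or carry it from the receptor (Nfkbia, Nfkbie, Tnfaip3, Traf1 and Traf3). They were chosen by symbol, and each was present as 1 row of the 32544 genes in both libraries. The data came from single-cell RNA sequencing with 3′ end counting of mouse bone marrow-derived monocytes (BMDMs) that were driven towards osteoclasts (OCs) with M-CSF at 50 ng/ml and RANKL at 100 ng/ml. There were 2 libraries, 1 from control mice, whose alleles the labels do not give, and 1 from LysM-Cre;Arid1afl/fl mice, in which a Cre expressed in myeloid cells removes floxed exons of Arid1a, the DNA-binding subunit of the canonical BAF chromatin remodelling complex. Both cultures received the same cytokines, and neither the age of the mice nor the number of mice behind a library is stated in the labels. With 1 library per group, no difference between genotypes could be tested, and every interval below is a 95% interval that covers counting error only.

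NF-kB proteins act as dimers that are kept in the cytoplasm by IkB proteins until a receptor such as RANK activates the IkB kinases. In the canonical branch the kinases remove IkB from dimers of RelA, c-Rel and the processed product of Nfkb1, and in the non-canonical branch they process the product of Nfkb2 to release RelB. The dimers then switch on their own inhibitors, and mice that lack both Nfkb1 and Nfkb2 form no OCs.

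Unique molecular identifiers (UMIs, each of which counts 1 captured transcript) numbered 163618835 in the 6269 cells of the control library and 131469887 in the 5663 cells of the mutant library, with medians of 23978 and 21734 per cell. Cells were kept from 500 detected genes and at up to 10% mitochondrial UMIs, which left out 186 and 202 barcodes, and 8 cell barcodes occurred in both libraries. Arid1a itself was at 51.9 counts per 1000000 UMIs (CPM) in the control library and 20.4 CPM in the mutant library, and 3′ end counting can still see transcripts of a recombined allele. Markers of other cells and states differed between the libraries. The 10 interferon-response genes summed to 490 CPM in control and 2318 CPM in mutant, the 4 neutrophil genes to 264 and 1981 CPM, the 6 macrophage genes to 1033 and 1952 CPM, the 5 inflammatory genes to 227 and 655 CPM and the 10 OC genes to 269 and 113 CPM. Markers of B cells, of T and NK cells and of dendritic cells summed to at most 3.23 CPM in either library.

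Where the members lie was read from the GENCODE annotation of GRCm39, the build named for the study. Among the subunits, Nfkb1 (ENSMUSG00000028163) spans 135290264 to 135397742 on chromosome 3, Nfkb2 (ENSMUSG00000025225) spans 46292759 to 46303812 on chromosome 19, Rel (ENSMUSG00000020275) spans 23686847 to 23721264 on chromosome 11, Rela (ENSMUSG00000024927) spans 5687493 to 5698161 on chromosome 19 and Relb (ENSMUSG00000002983) spans 19339017 to 19363425 on chromosome 7. Among the regulators, Nfkbia (ENSMUSG00000021025) spans 55535332 to 55539432 and Traf3 (ENSMUSG00000021277) spans 111132776 to 111233589, both on chromosome 12, Nfkbie (ENSMUSG00000023947) spans 45866585 to 45874661 on chromosome 17, Tnfaip3 (ENSMUSG00000019850) spans 18874201 to 18891405 on chromosome 10 and Traf1 (ENSMUSG00000026875) spans 34831762 to 34851837 on chromosome 2. An annotated gene on the opposite strand overlaps 7 of the 10 members, and reads of the pair cannot be told apart where counting ignores strand, a setting the sources used here do not give. Of those partners, 5 had a row in the gene table, and the most abundant was 4833438C02Rik, a long non-coding RNA over the start of Nfkb2, at 10.7 CPM in control and 11.3 CPM in mutant. The coding gene Psd, which overlaps the end of Nfkb2, was at 0.275 and 0.357 CPM.

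Since NF-kB controls several of its own regulators, the promoter windows of the members (250 bases before and 50 bases after a transcription start, RefSeq, GRCm38.p6) were searched on both strands for the kB consensus motif, which has 10 letters. A window was held for 8 members, all except Nfkb1 and Relb, and the motif occurred in a window of 6 of these 8, namely Nfkb2, Rel, Nfkbia, Nfkbie, Tnfaip3 and Traf3. For comparison, 9.55% of the 27025 genes with a window, and 8.46% of the 32851 windows, held the motif. The separate sites, without matches shifted by 1 base or repeated in an overlapping window, are shown 5′ to 3′ in the direction of the gene, with 10 bases on each side and the motif in capitals, because they let the target members be set beside their levels below:
Tnfaip3, 12 bases upstream of the start, chr10:19015403-19015432, minus strand: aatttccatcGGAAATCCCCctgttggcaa
Tnfaip3, 125 bases upstream, chr10:19015516-19015545, minus strand: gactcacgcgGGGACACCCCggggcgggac
Rel, 92 bases upstream, chr11:23771042-23771071, minus strand: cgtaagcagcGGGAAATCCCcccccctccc
Nfkbia, 29 bases upstream, chr12:55492657-55492686, minus strand: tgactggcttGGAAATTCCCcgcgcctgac
Traf3, 10 bases upstream, chr12:111166350-111166379, plus strand: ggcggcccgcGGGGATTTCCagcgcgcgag
Nfkbie, 106 bases upstream, chr17:45555584-45555613, plus strand: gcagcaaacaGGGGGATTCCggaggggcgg
Nfkb2, 39 bases upstream, chr19:46304688-46304717, plus strand: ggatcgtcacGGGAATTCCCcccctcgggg
Nfkb2, 11 bases upstream, chr19:46304716-46304745, plus strand: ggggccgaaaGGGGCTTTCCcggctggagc
Nfkb2, in its other windows, chr19:46305449-46305478, plus strand: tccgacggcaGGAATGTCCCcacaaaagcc
Nfkb2, in its other windows, chr19:46305695-46305724, plus strand: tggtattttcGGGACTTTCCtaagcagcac
Tnfaip3 and Nfkb2 each held more than 1 separate site, whereas the windows of Rela and Traf1 held none of these letters. A match describes the sequence only, and binding was not measured here.

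All 10 members were detected in both libraries, over a wide range of levels. In the control library Nfkbia, which encodes IkB-alpha, the inhibitor that RelA dimers induce first, was highest at 413 CPM, and Traf1, an adaptor of TNF-family receptors, followed at 116 CPM. Nfkb1 (54.1 CPM) and Nfkb2 (53.4 CPM) came next, with counting intervals that overlapped. Rela (37.3 CPM), Rel (34.9 CPM), Traf3 (28.8 CPM), Relb (25.8 CPM), Nfkbie (18.0 CPM) and Tnfaip3 (12.3 CPM) followed with intervals that were apart at each step. In the mutant library the order was kept at both ends, with Nfkbia at 484 CPM, Traf1 at 101 CPM, Relb at 27.4 CPM, Nfkbie at 25.0 CPM and Tnfaip3 at 14.8 CPM. Between them Nfkb2 (70.9 CPM) stood above Nfkb1 (64.1 CPM), and Rel (41.0 CPM), Rela (40.1 CPM) and Traf3 (38.6 CPM) could not be ranked beyond their intervals from neighbour to neighbour. These levels are UMIs of 3′ ends and are not divided by transcript length, so the order is of captured transcripts.

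The first comparison asked how the members differed between the libraries over all cells. Of the 10 members, 9 were at higher levels in the mutant library and Traf1 was lower, but none differed by a log2 ratio of 0.5 or more, against 15.7% of the 7185 genes tested that were higher past this fold and 7.97% that were lower. The median log2 ratio of mutant over control was 0.24 for the members and 0.04 for all genes tested, whose 5th and 95th percentiles were -0.61 and 1.07. The members lay within the range of all genes, from the 26.2 percentile for Traf1 to the 83.4 percentile for Nfkbie.

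Among the subunits the non-canonical precursor gene Nfkb2 differed most. Its level was 53.4 CPM (8740 UMIs) in control and 70.9 CPM (9318 UMIs) in mutant, a log2 ratio of 0.41 (0.37 to 0.45). Nfkb1, which encodes the canonical precursor, was at 54.1 and 64.1 CPM, a log2 ratio of 0.25 (0.20 to 0.29), and the ratio of Nfkb2 to Nfkb1 UMIs moved from 0.988 (0.959 to 1.02) to 1.11 (1.07 to 1.14). Rel, the gene of the c-Rel subunit, was at 34.9 and 41.0 CPM, a log2 ratio of 0.24 (0.18 to 0.29). Rela, which encodes the main activating subunit, and Relb, the activating partner in the non-canonical branch, were nearest to equal. Their log2 ratios were 0.10 (0.05 to 0.16) and 0.09 (0.02 to 0.15), and these turned to -0.003 and -0.019 when mitochondrial and ribosomal protein genes were taken out of the totals.

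Regulators spread further and in both directions. Nfkbie, which encodes IkB-epsilon, an inhibitor that acts later and more slowly than IkB-alpha, was at 18.0 CPM (2941 UMIs) in control and 25.0 CPM (3286 UMIs) in mutant, a log2 ratio of 0.48 (0.40 to 0.55). Traf3, the adaptor that keeps the non-canonical branch off by destroying its kinase, was at 28.8 and 38.6 CPM, a log2 ratio of 0.42 (0.36 to 0.48). Thus Nfkb2, the precursor gene, and Traf3, a restraining adaptor of the same branch, were higher by like amounts. The number of Traf3 UMIs per Nfkb2 UMI was 0.540 (0.521 to 0.559) in control and 0.545 (0.527 to 0.564) in mutant. Map3k14, the gene of the kinase that Traf3 destroys, was higher too, at 5.71 CPM (934 UMIs) and 10.7 CPM (1402 UMIs). Its mean level fell under the filter of 10 CPM. Nfkbia was at 413 and 484 CPM, a log2 ratio of 0.23 (0.21 to 0.25). Tnfaip3, which encodes the ubiquitin-editing enzyme A20 that shuts off signalling upstream of the kinases, was at 12.3 and 14.8 CPM, a log2 ratio of 0.27 (0.17 to 0.36). Traf1, the only member that was lower in the mutant library, was at 116 CPM (18965 UMIs) and 101 CPM (13340 UMIs), a log2 ratio of -0.19 (-0.22 to -0.16). This ratio stayed below 0 under all 11 other settings tried, of which those that changed only the gene filter on mean CPM could not move it.

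**Figure D1:**
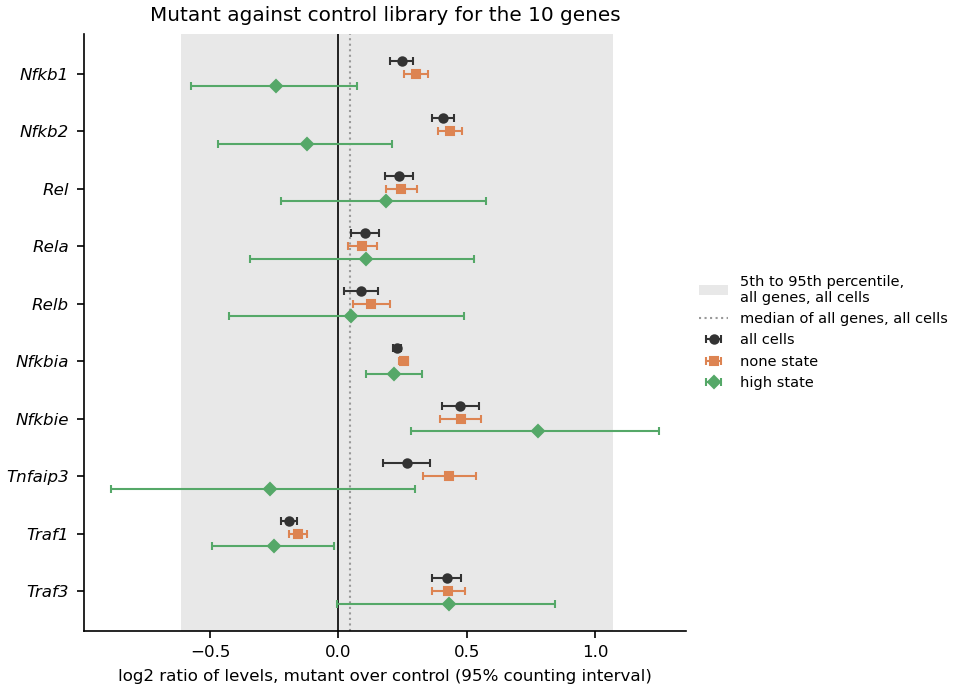
Log2 ratio of mutant over control level (x axis) for each of the 10 genes (y axis), in all cells (circles), in the none state (squares) and in the high state (diamonds), with 95% counting intervals from 1 library per group. The grey band runs from -0.61 to 1.07, the 5th to 95th percentile of all genes over all cells, and all 10 circles lie inside it, 9 of them to the right of 0 and Traf1 to the left at -0.19.

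Cells were then split by OC transcripts, which were counted at equal depth. Each cell was thinned to 5000 UMIs, and its UMIs of Ctsk, Mmp9 and Dcstamp (a collagen-cleaving protease, a matrix metalloproteinase and a fusion receptor of OCs) were summed. All 10 members passed the filter of a mean of 10 CPM in every comparison below. Cells with 0 were called none, with 1 or 2 low and with 3 or more high, and 168 control and 351 mutant cells under this depth were left out. In the control library 365 of 6101 cells were high (5.98%, exact binomial interval 5.40 to 6.61), and in the mutant library 51 of 5312 (0.960%, 0.716 to 1.26). Since neutrophils also carry Mmp9, the neutrophil-like cells were counted as a background, and 0 of 17 control ones (17.6% at the limit of 3 counts that a count of 0 allows) and 2 of 75 mutant ones (2.67%, 0.325 to 9.30) were high, so by their shares alone the high cells of neither library stand above what so few neutrophil-like cells allow. The high cells of the mutant library held other OC transcripts, with Acp5, the gene of tartrate-resistant acid phosphatase, at 749 CPM against 56.5 CPM in none cells, and with Atp6v0d2, a proton pump subunit, at 121 against 8.89 CPM. In the control library these genes were at 802 and 213 CPM in high cells. Cells past the cycling gate made up 41.1% of the high cells in control and 43.1% in mutant.

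Within the none state, which held 4784 control and 4937 mutant cells, the difference between the libraries was much as over all cells. Again 9 members were higher in the mutant library, Traf1 was lower, and none passed the fold, against 15.1% of 7161 genes higher and 6.76% lower. The median log2 ratio was 0.28, with 0.05 over all genes. Tnfaip3 was the member that moved most from the value over all cells, at 10.8 CPM in control and 14.6 CPM in mutant, a log2 ratio of 0.43 (0.33 to 0.54) in place of 0.27. Weighting the control levels of each state by the mutant shares of states gave the part of the difference that goes with the shares themselves. This part was -0.13 on the log2 scale for Tnfaip3 and between -0.04 and 0.01 for the other 9 members. It was opposite in sign to the difference itself in 7 members, Tnfaip3 (-0.13 against 0.26) and Relb (-0.04 against 0.08) among them.

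In the high state the mutant library gave only 1499003 UMIs, and intervals were wide. The high cells of the libraries also differed in other markers, with the neutrophil genes at 14.3 CPM in control and 1097 CPM in mutant, the interferon genes at 255 and 2141 CPM, the inflammatory genes at 73.9 and 474 CPM and the macrophage genes at 694 and 1343 CPM, and their part in the values that follow was not tested. Nfkbie was the 1 member past the fold, at 17.9 CPM (198 UMIs) in control and 30.7 CPM (46 UMIs) in mutant, a log2 ratio of 0.78 (0.28 to 1.25). Past the fold were also 19.6% of 7163 genes that were higher and 10% that were lower, and the Nfkbie ratio became -0.063 when 5 UMIs were asked of high cells, which left 18 mutant cells. Nfkbia, the member with the most UMIs, was at 456 and 531 CPM, a log2 ratio of 0.22 (0.11 to 0.33), close to its value over all cells. Traf1 was again lower, at 132 and 111 CPM, a log2 ratio of -0.25 (-0.49 to -0.02). The log2 ratios of Nfkb1 (-0.24), Nfkb2 (-0.12) and Tnfaip3 (-0.27) were below 0, and those of Traf3 (0.43), Rel (0.18), Rela (0.11) and Relb (0.05) above 0, all with intervals that held 0.

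**Figure D2:**
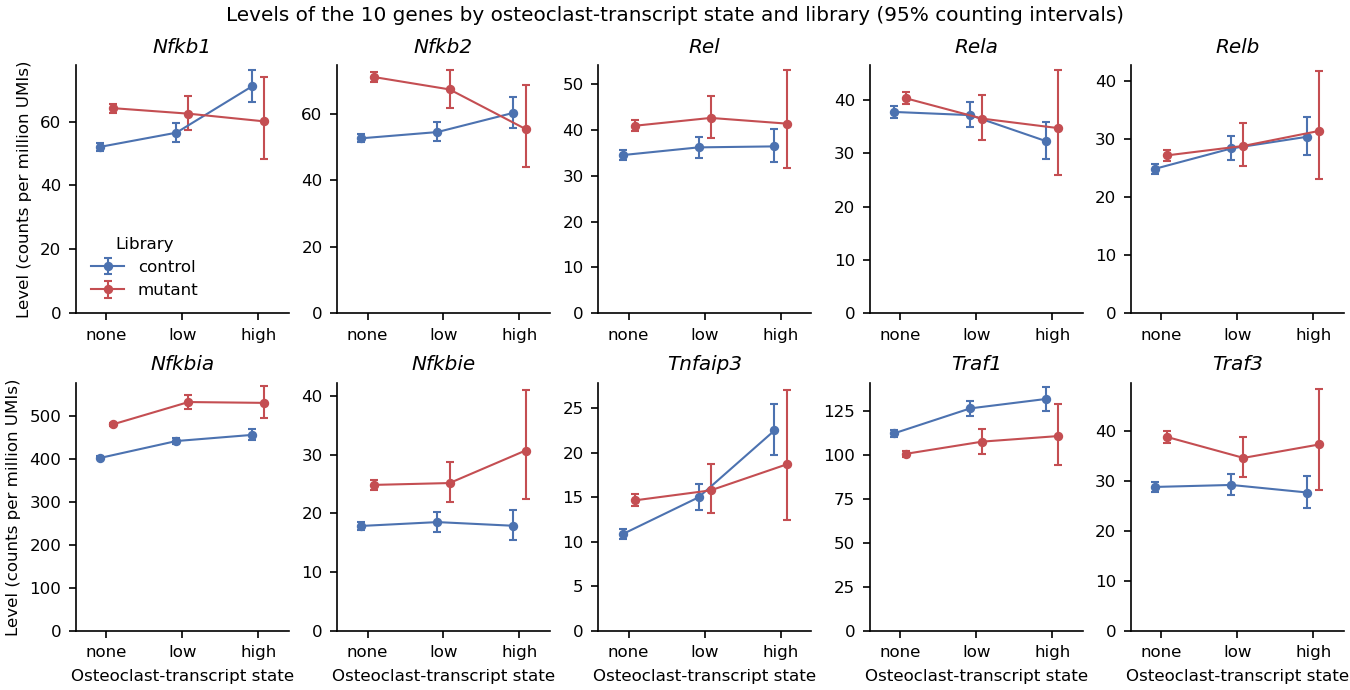
Level in CPM (y axis, from 0) of each of the 10 genes in the none, low and high OC-transcript states (x axis) of the control and mutant libraries, as points with 95% counting intervals from 1 library each. Tnfaip3 goes from 10.8 to 22.5 CPM across the control states, and the Nfkb1 and Nfkb2 points go up across the control states and down across the mutant states, where the intervals are wide.

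The next question was how the members change with OC transcripts within a library, where both sets of cells share 1 culture. In the control library Tnfaip3 stood apart from the other members. Its level was 10.8 CPM (1364 UMIs) in none, 15.0 CPM (395 UMIs) in low and 22.5 CPM (249 UMIs) in high cells, a log2 ratio of high over none of 1.05 (0.85 to 1.25), at the 98.1 percentile of the genes tested. It was the 1 member past the fold, against 9.88% of 7032 genes higher and 11.7% lower. At equal depth 5.33% (4.71 to 6.01) of none cells, 7.14% (5.59 to 8.97) of low cells and 11.5% (8.42 to 15.2) of high cells had a Tnfaip3 UMI.

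Nfkb1 was next, at 52.1, 56.5 and 71.1 CPM in none, low and high cells of the control library, a log2 ratio of 0.45 (0.34 to 0.56). Relb went from 24.8 to 30.3 CPM (0.29, 0.12 to 0.45), Traf1 from 112 to 132 CPM (0.23, 0.15 to 0.31), Nfkb2 from 52.6 to 60.2 CPM (0.20, 0.08 to 0.31) and Nfkbia from 403 to 456 CPM (0.18, 0.14 to 0.22), each by less than the fold. Rela was the 1 member lower in high cells beyond its interval, at 37.7 and 32.2 CPM, a log2 ratio of -0.23 (-0.39 to -0.07). Rel (0.08), Nfkbie (0.002) and Traf3 (-0.06) had intervals that held 0. The median over the members was 0.19 and that over all genes 0.08. As a result the number of Tnfaip3 UMIs per Rela UMI went from 0.288 (0.271 to 0.305) in none to 0.697 (0.591 to 0.822) in high cells, Nfkbia per Rela from 10.7 (10.4 to 11.0) to 14.2 (12.7 to 15.8) and Relb per Rela from 0.659 (0.629 to 0.689) to 0.941 (0.808 to 1.10).

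In the mutant library none of the members passed the fold between high and none cells, against 11.3% of 7312 genes higher and 10.6% lower, and the median was 0.08 for the members and 0.06 for all genes. Tnfaip3 was at 14.6 CPM in none, 15.8 CPM in low and 18.7 CPM in high cells, the last from 28 UMIs, a log2 ratio of 0.35 (-0.24 to 0.89). Nfkb1 was at 64.2, 62.5 and 60.0 CPM (-0.10, -0.41 to 0.20). Nfkb2 went from 71.0 through 67.3 to 55.4 CPM, less than the fold, a log2 ratio of -0.36 (-0.69 to -0.05). The same ratio was 0.14 (0.04 to 0.25) for Nfkbia and 0.31 (-0.15 to 0.73) for Nfkbie, and the intervals of the other 5 members held 0.

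Setting the high over none ratio of the mutant library minus that of the control library side by side for each member, the difference was -0.54 (-0.86 to -0.23) for Nfkb1, -0.55 (-0.89 to -0.22) for Nfkb2 and -0.70 (-1.27 to -0.13) for Tnfaip3. For the other 7 members the interval held 0, and for Nfkbia, with the narrowest, it ran from -0.15 to 0.07. For 4 of these 7 it excluded 0 with another definition of the state. At 10000 UMIs the difference was -0.20 (-0.28 to -0.12) for Nfkbia, -0.33 (-0.50 to -0.15) for Traf1 and -0.36 (-0.70 to -0.02) for Relb, on unthinned counts it was -0.37 (-0.59 to -0.15) for Relb and -0.15 (-0.25 to -0.04) for Traf1, and at 2000 UMIs it was 0.65 (0.11 to 1.19) for Traf3. For Nfkbia it was -0.09 (-0.18 to -0.01) from 2 UMIs and 0.09 (0.03 to 0.15) with Acp5 added to the state. These intervals cover counting error only, whereas Nfkbia and Traf1 varied more between cells than counting gives (below). In none cells Nfkb1, Nfkb2 and Tnfaip3 were higher in the mutant library, and in high cells their levels were below those of control with intervals of the ratio that held 0. The difference of these 3 depended on where the high state began. With 5 UMIs asked of high cells it was -0.066 for Nfkb1, -0.24 for Nfkb2 and -0.58 for Tnfaip3, each with an interval that held 0, from 194 control and 18 mutant cells. At a state depth of 2000 UMIs the intervals of Nfkb1 (-0.25) and Tnfaip3 (-0.43) held 0, and so did that of Tnfaip3 (-0.55) with Mmp9 left out of the state. The difference was below 0 for these 3 members under all 18 other settings tried, and no test across cultures was possible.

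**Figure D3:**
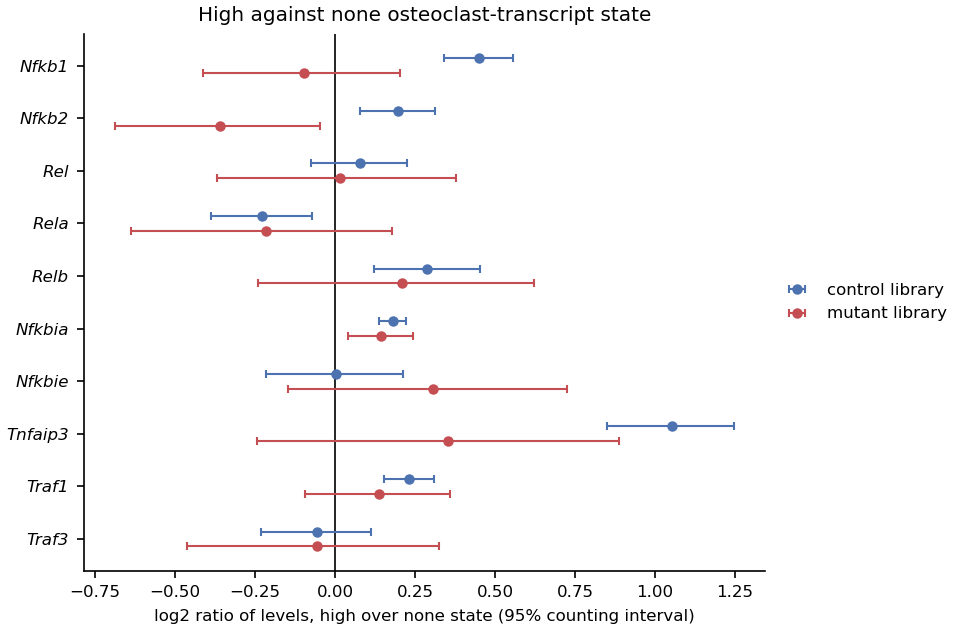
Log2 ratio of high over none state (x axis) for each of the 10 genes (y axis) in the control and mutant libraries, with 95% counting intervals from 1 library each. In control Tnfaip3 lies farthest right at 1.05, and for Nfkb1, Nfkb2 and Tnfaip3 the mutant point lies left of the control point by 0.54 to 0.70.

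How many cells carried each member was read at 5000 UMIs per cell. Nfkbia had a UMI in 79.4% of control and 83.2% of mutant cells (96.7% and 95.1% without thinning), and Traf1 in 40.7% and 36.5% (80.8% and 71.1%). For Nfkb1 the shares were 23.9% and 28.0% (68.3% and 67.9%), for Nfkb2 22.6% and 30.5% (68.0% and 70.9%), for Rel 15.8% and 18.4% (52.8% and 52.6%), for Traf3 13.8% and 17.5% (48.2% and 52.5%) and for Nfkbie 7.83% and 12.5% (34.1% and 38.0%). In these 5 and in Nfkbia, 6 members in all, the mutant share was higher at equal depth with intervals apart, and in Traf1 it was lower with intervals apart. Rela (17.5% and 18.9%), Relb (11.8% and 12.2%) and Tnfaip3 (5.98% and 6.63%) had overlapping intervals (unthinned 56.9% and 55.6%, 44.5% and 42.1%, and 24.2% and 25.2%). No cell type here is known to lack these transcripts, so a share in such cells could not be set beside them.

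Nfkbia and Traf1 varied more between cells than counting alone gives. Their Fano factor, the variance of UMIs over their mean, was 1.55 and 1.23 in control and 1.86 and 1.40 in mutant, whereas the other 8 members lay between 0.99 and 1.11, near the value of 1 that pure counting gives. These 2 members also had the most UMIs per cell, with means of 1.99 and 0.580 in control, against at most 0.278 (Nfkb1) for the others. Fano factors were not compared at equal level, so the part of level in this contrast was not tested. Nfkbia and Traf1 also had the highest correlation over cells, 0.117 in control and 0.186 in mutant, which is weak in counts this sparse and is given only as a description. At 2000 UMIs per cell, and with another seed of the thinning, only 1 member was at or above 1.2 in both libraries.

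Because the inflammatory and interferon genes differed so much between the libraries, the members were also set out by these genes, a split that was added after the data were seen. Cells with 10 or more UMIs, at 5000 per cell, over Tnf, Il1b, Acod1, Clec4e and Cxcl2 numbered 54 in control (0.861%) and 402 in mutant (7.10%). Nfkbie followed this split most closely. It was at 16.7, 18.9 and 45.7 CPM in control cells with 0, with 1 to 9 and with 10 or more such UMIs, and at 20.9, 25.0 and 38.8 CPM in mutant cells. The log2 ratio of 10 or more over 0 was 1.45 (1.04 to 1.83) in control and 0.89 (0.71 to 1.08) in mutant. Tnfaip3 came second, at 12.3 and 21.6 CPM in control (0.81, 0.20 to 1.36) and at 14.2 and 19.5 CPM in mutant (0.46, 0.21 to 0.71). Nfkbia was at 415 and 576 CPM in control (0.47, 0.36 to 0.58) and at 475 and 593 CPM in mutant (0.32, 0.28 to 0.36). In mutant Relb (0.39, 0.20 to 0.57) and Rel (0.33, 0.17 to 0.48) were also higher, as were Rela (0.21) and Traf1 (0.16). In control Rela was higher (0.42, 0.03 to 0.79), and Relb, Rel and Traf1 had intervals that held 0. Those of Nfkb1, Nfkb2 and Traf3 held 0 in both libraries. Thus Tnfaip3 was higher both in OC-high cells and in inflammatory cells of the control library, whereas Nfkbie was higher in inflammatory cells and level across OC states. Of the 365 OC-high control cells, 2 had 10 or more inflammatory UMIs.

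Among cells without any of these inflammatory UMIs the libraries still differed in most members. The log2 ratio of mutant over control was 0.34 (0.27 to 0.42) for Nfkb2, 0.39 (0.30 to 0.49) for Traf3, 0.32 (0.19 to 0.45) for Nfkbie, 0.18 (0.11 to 0.26) for Nfkb1 and -0.23 (-0.28 to -0.17) for Traf1. In cells with 10 or more, Nfkbie was not higher in the mutant library (-0.24, -0.64 to 0.19). The ratio for Nfkbie was 0.48 over all cells and 0.32 and 0.40 in cells with 0 and with 1 to 9 such UMIs, and that of Traf3 was 0.42, 0.39 and 0.43.

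**Figure D4:**
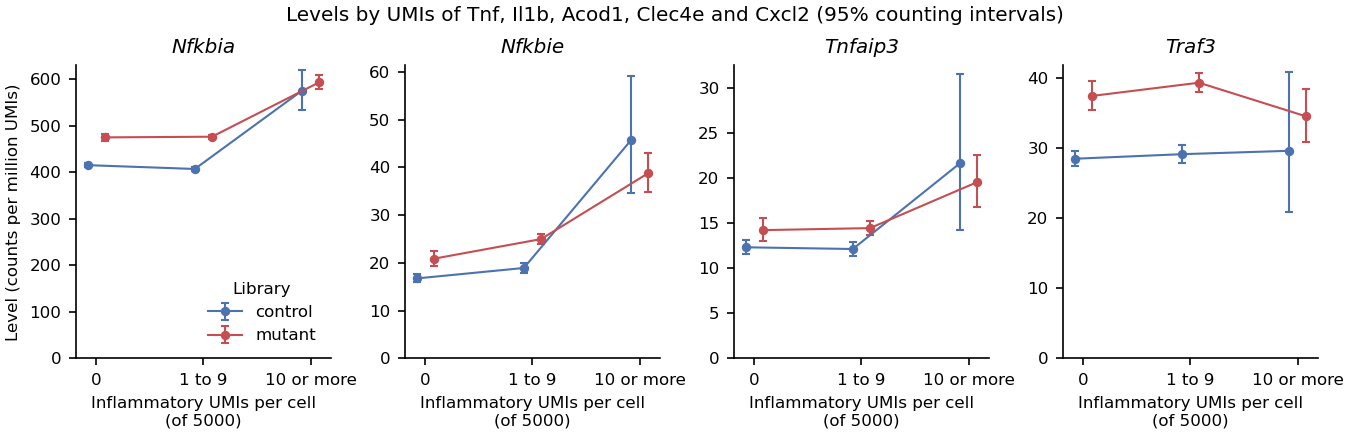
Level in CPM (y axis, from 0) of Nfkbia, Nfkbie, Tnfaip3 and Traf3 in cells with 0, 1 to 9 and 10 or more UMIs of 5 inflammatory genes (x axis) in the control and mutant libraries, with 95% counting intervals from 1 library each. Nfkbie reaches 45.7 CPM in control and 38.8 CPM in mutant, whereas Traf3 stays near its starting level in each library.

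Each library was also split into 3 equal bins by the UMIs of the interferon genes. The bins were set within a library, and over all cells these genes were at 490 CPM in control and 2318 CPM in mutant. Bins of the same name are therefore not matched for interferon level between the libraries. In the mutant library Nfkbie was at 20.1, 23.9 and 31.1 CPM in the lowest, middle and highest bin, a log2 ratio of highest over lowest of 0.63 (0.50 to 0.75). Relb (0.29), Traf1 (0.28), Nfkb2 (0.28), Nfkbia (0.18) and Rela (0.16) were also higher in the highest bin of that library. In the control library the same ratio was 0.22 (0.09 to 0.35) for Nfkbie and -0.34 (-0.50 to -0.19) for Tnfaip3, and for the other 8 members it lay between -0.13 and 0.07. The lowest control bin held 193 OC-high cells and the highest 64, and their part in the Tnfaip3 ratio was not tested. The log2 ratio of mutant over control for Traf1 was -0.39 (-0.45 to -0.33) in the lowest bins and 0.02 (-0.04 to 0.08) in the highest, so its lower level in the mutant library was seen in the lowest and middle bins (-0.21, -0.27 to -0.16) and not in the highest.

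Small groups of cells had their own mixtures. The 48 mutant cells with a high level of MHC class II transcripts had Relb at 74.7 CPM and Rel at 95.7 CPM, against 27.3 and 40.8 CPM in cells outside the marker gates, log2 ratios of 1.45 (1.02 to 1.86) and 1.23 (0.85 to 1.59), and Traf1 was 0.74 (0.46 to 1.01) higher on the log2 scale. The control library held 7 such cells. There the same log2 ratio was -0.73 (-3.77 to 1.13) for Relb and 1.01 (-0.12 to 1.93) for Rel, both with intervals that held 0. For Traf1 it was 1.01 (0.44 to 1.53). The 89 neutrophil-like mutant cells had less Nfkb2 (23.4 against 71.3 CPM) and Traf1 (39.9 against 102 CPM). Without the cells of any marker gate (neutrophil, stromal or class II), there was a log2 ratio of mutant over control of 0.42 for Nfkb2, 0.48 for Nfkbie and -0.19 for Traf1, as large as with them. Cells past the cycling gate differed from the rest by at most 0.25 on the log2 scale, for Nfkb1 in the mutant library.

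The rest of the pathway was read in lists of kinases, adaptors, other inhibitors and target genes, each gene with a mean of at least 10 CPM, to be read against the 15.7% of all genes higher and 7.97% lower. Of 8 kinase genes tested from a list of 11, Ikbke, a relative of the IkB kinases, was higher past the fold in the mutant library (19.1 to 40.1 CPM, log2 ratio 1.07), and Ikbkg, which encodes the regulatory subunit NEMO, was lower (16.8 to 10.9 CPM, -0.62). The median was 0.15. Of 12 adaptor genes from a list of 15, 3 were higher past the fold, namely Sqstm1, a ubiquitin-binding scaffold (0.90), Tank (0.55) and Rnf31, a linear ubiquitin ligase (0.55), and none was lower, with a median of 0.32. Of 11 other inhibitor genes from a list of 12, Nfkbiz (1.07) and Nfkbid (0.57), which encode atypical nuclear IkB proteins, were higher and none was lower, with a median of 0.12.

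The largest single ratios of these lists were among the target genes, a list that was chosen with earlier results of these data known. Of 11 tested from a list of 19, 5 were higher past the fold in the mutant library, against 15.7% of all genes, and none was lower. Their median was 0.33, close to the 0.32 of the adaptors. Acod1, the itaconate-producing enzyme, went from 18.3 to 100.6 CPM (log2 ratio 2.46), the chemokine gene Cxcl2 from 96.0 to 373 CPM (1.96) and the chemokine gene Ccl4 from 51.0 to 144 CPM (1.49), while Ier3 was lowest at -0.31. By contrast the members, some of which are also targets of NF-kB, had a largest log2 ratio of 0.48. In high over none cells of the control library 7 of 11 target genes were lower past the fold and none was higher, with a median of -1.47, against 11.7% of all genes lower. Other lists were lower there too, with 7 of 8 interferon genes past the fold (median -1.52), 3 of 5 macrophage genes and 3 of 3 neutrophil genes. So were 3 of 3 inflammatory genes (median -1.98), but the inflammatory list shares Tnf, Il1b, Acod1 and Cxcl2 with the target list. The part of these lists in the target genes was not tested. Cxcl2 went from 107.9 to 27.4 CPM there and Ccl4 from 58.3 to 7.40 CPM, whereas Tnfaip3, which is often counted with such targets, went the other way. Chosen after its values were seen, Tnfrsf11a, the gene of the RANK receptor, went from 64.2 to 102.5 CPM in the same cells (0.67). In the mutant library, with 51 high cells, 3 of 12 target genes were lower past the fold from none to high cells and 2 were higher. Their median was -0.16, against 10.6% of all genes lower and 11.3% higher. None of the 10 interferon genes passed the fold in that comparison.

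**Figure D5:**
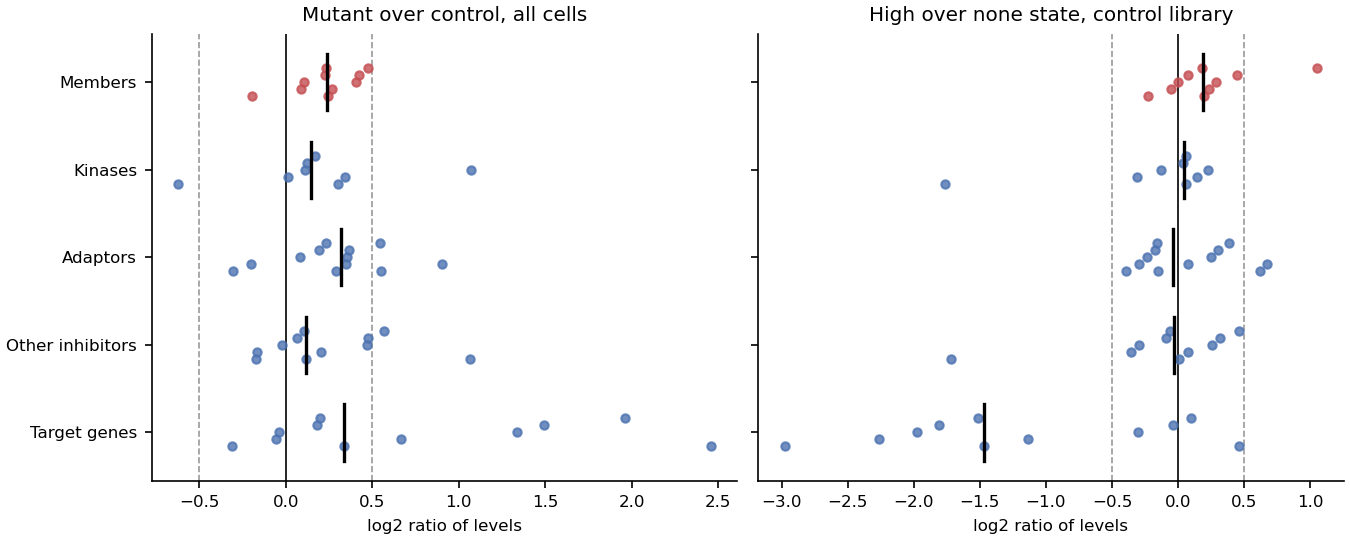
Log2 ratio of levels (x axis) of each gene tested in the 10 members (red) and in 4 pathway lists (blue), for mutant over control over all cells (left) and high over none state in the control library (right), with list medians as black bars and dashed lines at -0.5 and 0.5. The members sit in a narrow range on the left, and on the right Tnfaip3 is the only member beyond 0.5, at 1.05, while 7 of 11 target genes lie below -0.5.

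The pattern of each member was compared with 6780 genes over 12 groups of cells (2 libraries, 3 OC-transcript states, inside or outside the cycling gate) by the Pearson correlation of log2 levels, as a description, since the groups share libraries and some hold few cells. Tnfaip3 was most like Mitf (0.923), which encodes a transcription factor of OCs and melanocytes, Rasa2 (0.920) and Rabgef1 (0.917). Nfkbia was most like Fblim1 (0.961) and Il1rn (0.938), the gene of the interleukin-1 receptor antagonist, and Traf1 was most like Nudt1 (0.960). Nfkb2 was most like Ranbp9 (0.895) and Chuk (0.887), the IkB kinase of the non-canonical branch. The highest values were 0.885 for Nfkb1 (Ppp1r12a), 0.948 for Rel (Afdn), 0.923 for Rela (Mideas), 0.947 for Relb (Fnbp1l), 0.930 for Nfkbie (Leng1) and 0.933 for Traf3 (Ccm2). No member had another member among its 3 most alike genes. Each value is among the highest of 6780 genes over only 12 groups. How high such values run among unrelated genes was not tested.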

How the data were processed

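Osteoclast-induced BMDMs were sequenced as 1 control and 1 mutant 10x 3′ library. The authors deposited raw UMI counts per gene and barcode, with Cell Ranger named in the file header at version 6.1.0, and GRCm39 is the build named in the submitters' processing notes. The steps before the deposited counts, such as the strand setting, are not given in the sources used here. Members and lists were chosen with earlier results of these data known. Cells had at least 500 genes and at most 10% mitochondrial UMIs, and doublets were kept in the main values (333 control and 275 mutant barcodes were marked and removed in an alternative). Levels are summed UMIs per 1000000 (CPM), from 163618835 and 131469887 UMIs, with exact Poisson intervals, and the ratio of 2 levels has the exact conditional interval. The difference of 2 log2 ratios has a normal approximate counting interval. Shares have exact Clopper-Pearson intervals, all at 95%. A gene was tested against the fold at a mean of 10 CPM or more in the sums compared and counted as past it from a log2 ratio of 0.5, with no p-value. States used cells thinned to 5000 UMIs, and levels used all UMIs of those cells. All 10 members are described. For each pathway list up to 3 highest and 3 lowest genes were eligible to be named, and the 3 most alike genes per member by correlation of log2(CPM + 1). The ratio and thinning steps were tested on simulated data. Python 3.11.15 with numpy 2.4.6, scipy 1.17.1, scikit-learn 1.9.0 and pandas 2.3.3 was used, with R 4.3.3 (edgeR 4.0.16, DESeq2 1.42.0) for alternative scaling factors only. Other scalings, weights, filters, thinning depths, state limits and state genes were tried.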

Additional observations from a re-analysis of the deposited data

Results flagged for a closer look

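The ratio of high over none cells had opposite signs in the libraries for 2 members. For Nfkb1 it was 0.45 in control and -0.10 in mutant, a difference of -0.54, and for Nfkb2 it was 0.20 and -0.36, a difference of -0.55. The interval of the Nfkb1 ratio in mutant held 0, and this ratio was above 0 with the state at 2000 UMIs (0.25), from 5 UMIs (0.40) and with Acp5 added to the state (0.06), whereas that of Nfkb2 was below 0 in all 18 other settings. Settings that changed only the gene filter on mean CPM could not move these ratios. The difference between genotypes was not tested, since each has 1 library, and the mutant high state held 51 cells. The barcodes left out by the filters also carried the members. Their 10 members summed to 645 CPM (249 UMIs, 568 to 731) in control and 897 CPM (296 UMIs, 797 to 1005) in mutant, against 793 and 907 CPM in the cells kept.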

How the results depend on the processing

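No paired analysis was possible because each group has 1 library, and for the same reason no library could be left out in turn. Over all cells the members' median log2 ratio of mutant over control, 0.24, was 0.18 with TMM scaling, 0.15 with median-of-ratios scaling, 0.13 with totals without mitochondrial and ribosomal protein genes and 0.29 with every cell weighted alike, where 2 members passed the fold (Nfkb2 at 0.54 and Nfkbie at 0.53). Relb turned to -0.0019 with median-of-ratios scaling, and with totals without mitochondrial and ribosomal protein genes Relb turned to -0.019, Rela to -0.0028 and Rela in the none state to -0.0015. In the control library the median of high over none, 0.19, was 0.093 with TMM scaling and 0.28 under the same trimmed totals, where 2 members passed the fold, and 0 members did at a mean of 20 CPM, which removes Tnfaip3. In the mutant library 1 member passed with every cell weighted alike, 2 with the state at 2000 UMIs and 1 from 5 UMIs. Traf1 turned to -0.041 (control, high over none) and Nfkbia to -0.0045 (mutant, high over none) with the state at 2000 UMIs, and Nfkbie in the high state turned to -0.063 from 5 UMIs. The number of members with a Fano factor of at least 1.2 in both libraries went from 2 to 1 at 2000 UMIs and to 1 with another seed. Leaving Mmp9 out of the state was chosen after seeing the data, and its values are among the counts that follow. Causes were not tested. Over the single members, 73 of 1010 alternative values had the other sign, 7 of them where the main interval excluded 0. Of the rest, and of sign changes where it held 0, 901 lay inside the main interval and 102 outside it. The 1010 include settings that changed only the gene filter on mean CPM, where each member kept its main value. The mutant high state, at 51 cells, limits every value that rests on it.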
